A study of Homo sapiens with 6 samples.

Results

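The serpins are the genes of the deposited table of counts whose name is SERPIN followed by a clade letter from A to I and a number. This name rule, which used no measured value, found 24 of the 33451 genes in the table. They were read in mRNA of MDA-MB-453, an established human breast cancer cell line, which had been cultured for 5 days with 100 nM 25(OH)D, the vitamin D metabolite that circulates in blood, or with alcohol as its solvent (control). Each group had 3 libraries, which the paper describes as biological replicates, and every library came from this single cell line grown in medium with serum. GENCODE 29, an annotation of the same genome build (GRCh38), lists 34 protein-coding serpins under the name rule, of which 24 had a row in the table and the other 10 were not analysed here.

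Serpins are folded around a flexible reactive centre loop. A protease that cuts this loop as if it were a substrate is trapped in a covalent complex with the serpin, so each inhibitor molecule is used once. Clade B members lack a classical signal peptide and act mainly inside cells, most other clades are secreted into plasma or tissue fluid, and a few members do not inhibit proteases at all. SERPINH1, for example, is a collagen chaperone of the endoplasmic reticulum. In breast tissue the family is known for SERPINB5 (maspin), a marker of myoepithelial cells.

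The 6 libraries held between 33268860 and 40928176 counts. A count of 3, used as the floor, was worth between 0.0733 and 0.0902 CPM (counts scaled to the size of the library). All 12 luminal epithelial markers, among them KRT8 and GATA3, passed the low-count filter, with summed levels of 4727 to 4876 CPM after TMM normalization in control and 4899 to 4935 CPM in 25(OH)D. Of 6 leukocyte markers only CD68, a lysosomal protein, passed the filter, and it rose from a mean of 4.93 to 15.9 CPM. The leukocyte marker PTPRC had means of 0.0433 and 0.0916 CPM, and none of the 4 endothelial markers passed. Mitochondrial genes took between 7.85% and 7.99% of control counts and between 8.89% and 9.24% of 25(OH)D counts. In such bulk libraries, fewer cells that express a gene and less RNA per cell cannot be told apart.

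The promoter sequences of the 3 serpins that passed the test described below are given first, since they are the DNA in front of the genes on which the results turn. They run from 250 bases before to 50 bases after a start listed by RefSeq, are written 5′ to 3′ on the strand of the gene, and use GRCh38.p14. The motifs searched are given next, and every match is in capitals. The half-sites of nuclear receptors such as the vitamin D receptor were AGGTCA along with its variants AGTTCA as well as GGGTCA and also GGTTCA, on either strand, so that a match on the reverse strand appears as its reverse complement, such as TGACCT. The heat shock element was TTC, GAA and TTC, each set apart by 2 bases of any kind, on either strand, and TATAA was searched on the strand of the gene.
SERPINB1, chr6:2841814-2842113, minus strand: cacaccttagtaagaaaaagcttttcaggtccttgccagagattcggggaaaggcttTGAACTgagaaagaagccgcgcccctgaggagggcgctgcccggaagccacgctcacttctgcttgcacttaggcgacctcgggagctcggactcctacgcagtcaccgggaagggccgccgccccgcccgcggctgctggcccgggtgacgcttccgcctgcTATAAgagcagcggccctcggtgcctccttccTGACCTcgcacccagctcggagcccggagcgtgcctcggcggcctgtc
SERPINB6, the first of 4 promoters listed, chr6:2971518-2971817, minus strand: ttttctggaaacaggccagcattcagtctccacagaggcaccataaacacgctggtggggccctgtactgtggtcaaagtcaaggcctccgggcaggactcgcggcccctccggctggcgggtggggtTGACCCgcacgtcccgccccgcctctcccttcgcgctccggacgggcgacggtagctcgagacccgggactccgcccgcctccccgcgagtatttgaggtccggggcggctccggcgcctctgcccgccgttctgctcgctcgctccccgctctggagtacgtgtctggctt
SERPINH1, the first of 2 promoters listed, chr11:75562003-75562302, plus strand: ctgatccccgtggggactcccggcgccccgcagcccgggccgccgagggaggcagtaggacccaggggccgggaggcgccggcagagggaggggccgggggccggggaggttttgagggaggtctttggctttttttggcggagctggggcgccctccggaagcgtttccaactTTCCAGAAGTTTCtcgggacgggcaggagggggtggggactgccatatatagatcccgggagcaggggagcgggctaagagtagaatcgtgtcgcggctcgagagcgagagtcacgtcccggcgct
With the start base counted as 0, the SERPINB1 window held AGTTCA from base -193 to base -188 and AGGTCA from base 2 to base 7, both on the reverse strand, and TATAA from base -30 to base -26. The SERPINB6 window held GGGTCA on the reverse strand from base -122 to base -117. The SERPINH1 window held the heat shock element from base -76 to base -64 and no half-site. Among 34796 different promoter sequences in the same table, 38.6% held at least 1 half-site, 14.9% held TATAA and 0.491% held the heat shock element. RefSeq promoters were matched for 19 of the 24 serpins, 29 windows in all, some of which overlap, and 18 of these windows held a half-site. The DR3 vitamin D response element, a pair of half-sites set 3 bases apart, was in 0 of the 29 windows and in 0.0747% of all promoters. No such match shows that a factor binds there.

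Most serpins were close to the floor in these cells, and only a few were abundant. RPKM values, which are counts divided by gene length and library total, allow levels to be compared between genes. In control, SERPINB6 stood highest with 12.2 ± 0.453 RPKM (SD, n = 3), followed by SERPINH1 with 6.87 ± 0.195, SERPINE3 with 2.68 ± 0.535 and SERPINB1 with 2.60 ± 0.378. SERPINE3 and SERPINB1 overlapped in their control libraries, while each of the other neighbours in this order was separated from the next in all 3. The level of SERPINE3 may include reads of INTS6, which shares exon bases with it, as described below. Next came SERPINB8 with 0.464 ± 0.0908 RPKM, and no other member was above 0.272 RPKM in a control library. In 25(OH)D the order changed at the top. SERPINB1 became the most abundant serpin with 26.5 ± 2.07 RPKM, above SERPINB6 with 19.0 ± 0.657, and the lowest SERPINB1 library (24.4 RPKM) was above the highest SERPINB6 library (19.6 RPKM). SERPINH1 followed with 5.82 ± 0.341, SERPINE3 with 2.42 ± 0.149 and SERPINB8 with 0.660 ± 0.166 RPKM. Among the 18183 genes tested, SERPINB1 thus moved from above 47.1% of genes to above 90.2% of genes by mean RPKM. The ratio of SERPINB1 to SERPINB6 RPKM was 0.220, 0.178 and 0.244 in control and 1.45, 1.46 and 1.28 in 25(OH)D. All 24 members together made up between 109 and 111 CPM in control and between 211 and 226 CPM in 25(OH)D. Without SERPINB1 these sums were 100.2 to 103 CPM and 131 to 137 CPM. Within these sums SERPINB6 alone went from a mean of 56.7 to 91.2 CPM, and SERPINH1 from 33.3 to 29.05 CPM. The sums therefore do not show a rise of the remaining members.

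**Figure D1:**
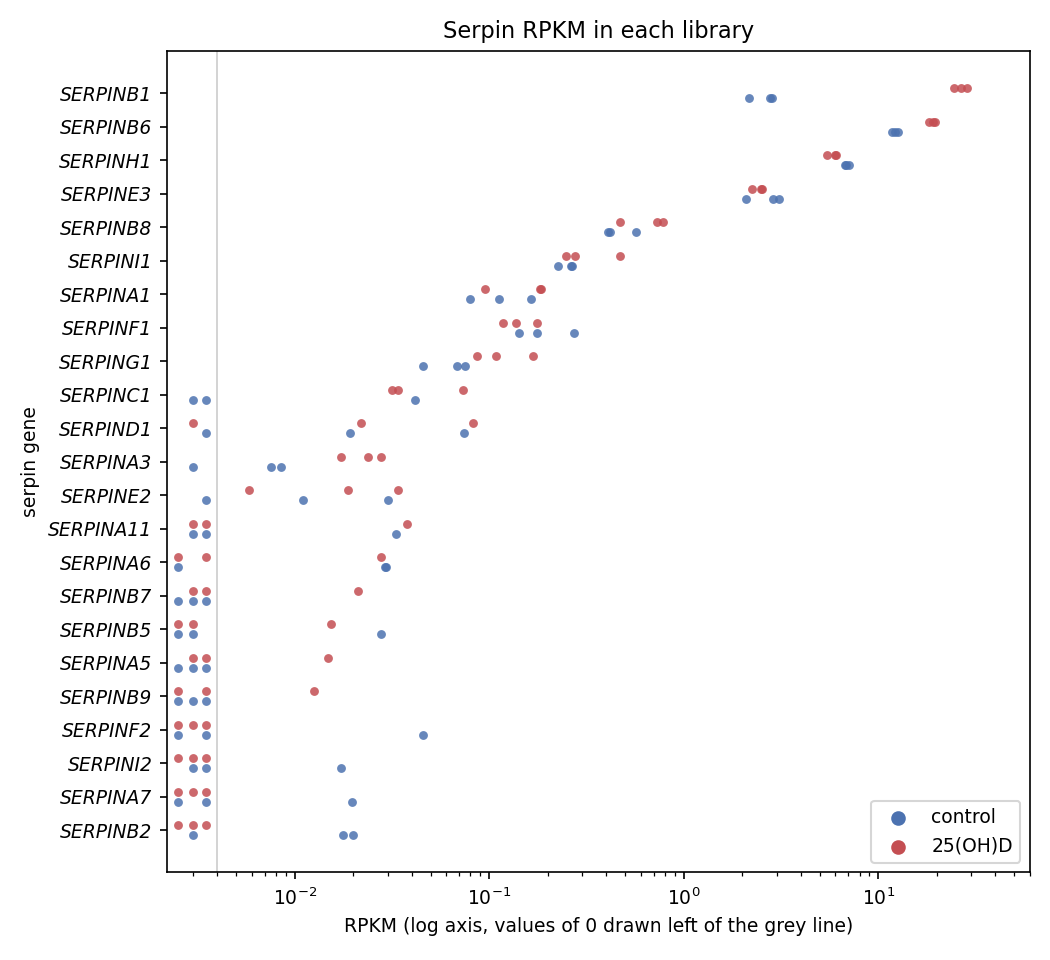
RPKM of the serpins named in the text in each library (log axis, control in blue and 25(OH)D in red, values of 0 drawn left of the grey line). SERPINB1 lies between 2.16 and 2.85 RPKM in control and between 24.4 and 28.6 RPKM in 25(OH)D, while most members lie near or at 0 in both groups.

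To ask how 25(OH)D changed the family, each gene was compared between the groups as a log2 fold change with its standard error (SE; values above 0 are higher in 25(OH)D) from edgeR's quasi-likelihood test on all genes that passed the low-count filter. Of the 24 serpins, 10 passed this filter. With a Benjamini-Hochberg adjusted p under 0.05, SERPINB1 and SERPINB6 rose and SERPINH1 fell. These are 2 of 10 tested members higher and 1 lower, beside 17.3% and 16.5% of all genes tested, and the 3 called of 10 stand beside 33.8% of all genes in either direction, so the number called was close to the background. The study itself set the limits at more than 1 unit of log2 fold change in size with p under 0.05 before adjustment. At these limits 1 member, SERPINB1, was higher and 0 were lower, beside 4.02% and 2.63% of all genes (6.65% in either direction). Control and 25(OH)D libraries were fully apart for SERPINB1, SERPINB6, SERPINH1 and SERPING1, which are 4 of the 10 members, while 45.7% of all tested genes were apart in this way. The median log2 fold change of the 10 members was 0.50, against -0.01 for all genes tested, with 7 members above 0 and 3 below. This median lies between SERPINI1 (0.44, edgeR adjusted p = 0.380) and SERPINB8 (0.55, adjusted p = 0.0574), neither of which was called. Several of the 10 had at most 44 counts in every library, so the median does not show a rise of the whole family.

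**Figure D2:**
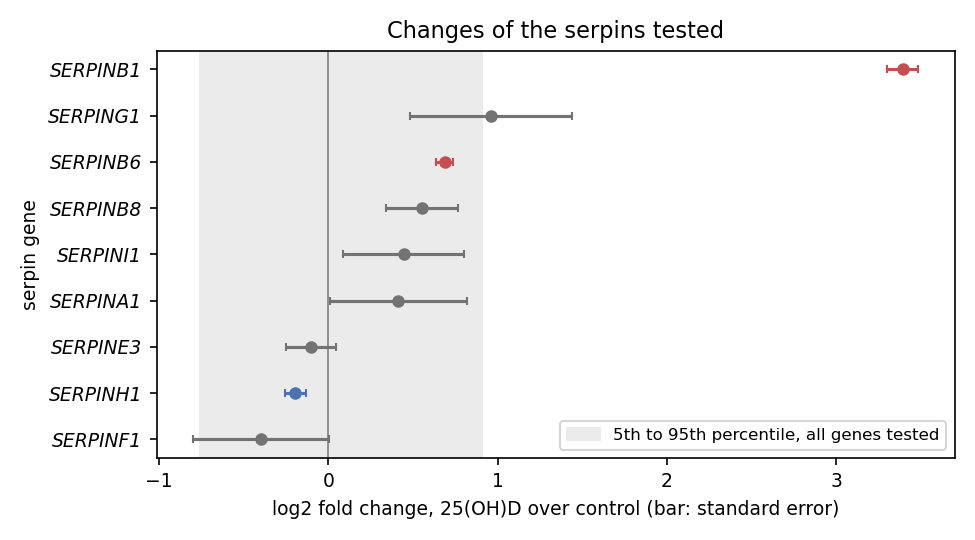
Log2 fold change of 25(OH)D over control for the tested serpins named in the text, with the standard error as a bar; members with an adjusted p under 0.05 are red (higher) or blue (lower). SERPINB1 (3.39) and SERPING1 (0.96, not called) lie above the grey band, which runs from the 5th to the 95th percentile of all genes tested (-0.76 to 0.90), and SERPINB6 (0.69) and SERPINH1 (-0.20) lie inside it.

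Clade B, the intracellular serpins, held both members that rose. They are 2 of its 3 tested members, beside 17.3% higher among all genes tested. SERPINB1, an inhibitor of neutrophil elastase, proteinase 3 and cathepsin G, is on chromosome 6 (2832332 to 2842006, minus strand of GRCh38, 8 exon blocks). Its control counts were 352, 249 and 322, and its counts after 25(OH)D were 2937, 3427 and 2514. Every 25(OH)D library was far above every control library. In CPM it went from 7.93 ± 1.17 to 83.3 ± 5.99 (SD, n = 3 each), a 10.5-fold rise (log2 fold change 3.39 ± 0.0938 SE, edgeR adjusted p = 2.08e-12). By the size of the rise it ranked 103 and by p-value 53 among 18183 genes. Omitting single libraries moved this log2 value only between 3.28 and 3.47. The summed leukocyte markers, nearly all CD68, were at most 6.002 CPM in control and at least 13.5 CPM in 25(OH)D, and their part in the SERPINB1 values was not tested.

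SERPINB6, an inhibitor of cathepsin G and thrombin that is widely expressed, lies 106153 bases from SERPINB1 on the same strand (chromosome 6, 2948159 to 2972165). Its counts were 2440, 2142 and 2019 in control and 3103, 3598 and 2993 in 25(OH)D. The groups did not overlap, and the spread within each was small against the gap. It rose 1.61-fold (log2 fold change 0.69 ± 0.0491 SE, adjusted p = 7.31e-08), with group levels of 56.7 ± 1.88 and 91.2 ± 2.71 CPM (SD, n = 3 each). The range without each library in turn was 0.67 to 0.72. Neither SERPINB1 nor SERPINB6 shared exon bases with another gene of the table, and 0% of the 100-base stretches of their transcripts occurred in transcripts of another gene.

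SERPINB8, known as an inhibitor of furin, is in the other clade B cluster, on chromosome 18 (63969925 to 64019779, plus strand). It had 100, 124 and 87 counts in control and 99, 165 and 153 counts in 25(OH)D, so that 1 of the 25(OH)D libraries lay among the controls. Its log2 fold change was 0.55 ± 0.210 SE (edgeR adjusted p = 0.0574), short of the threshold. Without 25(OH)D replicate 1 it was 0.75 with an adjusted p of 0.0107, and without control replicate 2 it was 0.73 with an adjusted p of 0.0343, while leaving out any other library gave an adjusted p of 0.138 to 0.178. SERPINB8 shares 370 exon bases with HMSD on the same strand and 257 with an unnamed transcript on the opposite strand.

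The other 4 clade B genes in the table did not pass the filter. SERPINB9, the granzyme B inhibitor that lies between SERPINB1 and SERPINB6, had 2 counts in 1 of the 25(OH)D libraries and 0 in all others. Its pseudogene SERPINB9P1, also between them, had 6 counts in that same library only. SERPINB5 (maspin) had 4 counts in 1 control library and 2 in 1 25(OH)D library, SERPINB2 had 2 in each of 2 control libraries, and SERPINB7 had 2 in 1 25(OH)D library. At this depth no difference could be detected for these genes.

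**Figure D3:**
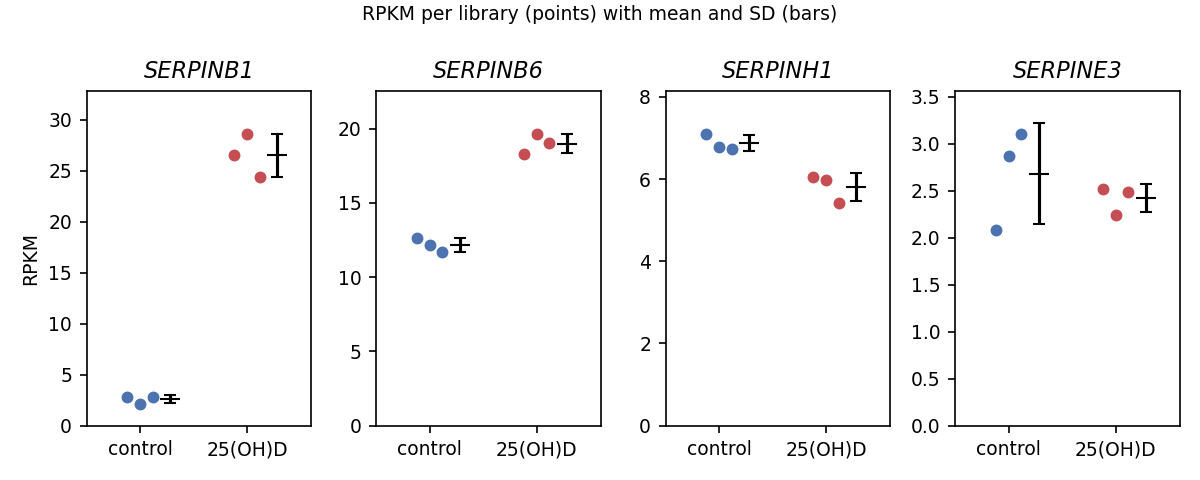
RPKM of the 4 most abundant serpins in each library (points) with mean and SD (bars, n = 3), each axis starting at 0. SERPINB1 and SERPINB6 are higher in all 3 25(OH)D libraries, SERPINH1 is lower in all 3 by a small margin, and SERPINE3 overlaps between the groups.

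The genes around the 2 members that rose were read from the same table. The window of 250 kb was chosen after the data were seen. Each of the 2 members, already called above, also counts as a neighbour of the other, so the counts below are not independent of that call. Within 250 kb of SERPINB1 there were 12 other genes with counts, of which 7 were tested, 4 rose and 0 fell, beside 17.3% higher and 16.5% lower among all genes tested. Besides SERPINB6, the genes that rose were MYLK4 (a myosin light chain kinase) with a log2 fold change of 0.85 ± 0.242 SE (edgeR adjusted p = 0.0143), NQO2 (a quinone reductase) with 0.60 ± 0.0733 SE (adjusted p = 1.76e-05) and RIPK1 (a kinase of cell death signalling) with 0.33 ± 0.0434 SE (adjusted p = 3.52e-05). WRNIP1, which lies on the same side of SERPINB1 as MYLK4 and closer to it, had a log2 fold change of 0.25 ± 0.104 SE (edgeR adjusted p = 0.0871). The 7 neighbours tested ranged from -0.09 to 0.85, all below the 3.39 of SERPINB1. Within 250 kb of SERPINB6 there were 16 other genes, most of them the same ones, of which 10 were tested, 4 rose (SERPINB1 among them) and 1 fell. The gene that fell was TUBB2A, a beta-tubulin gene, with a log2 fold change of -1.41 ± 0.200 SE (edgeR adjusted p = 7.21e-05).

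**Figure D4:**
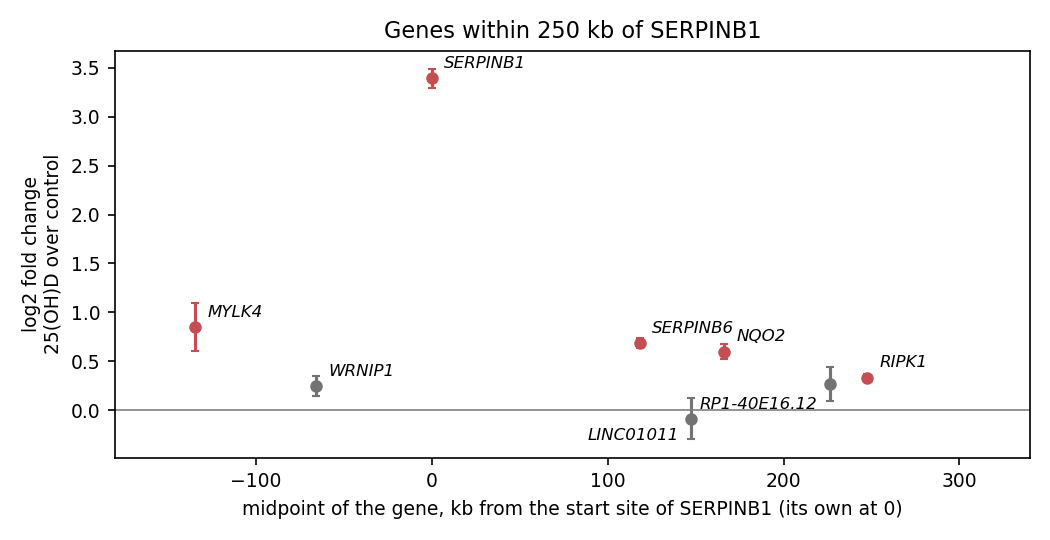
Log2 fold change of 25(OH)D over control (bar: standard error) of the 7 tested genes within 250 kb of SERPINB1, by the distance of their midpoint from its start site in kb, with SERPINB1 itself at 0. Red points have an adjusted p under 0.05; no neighbour exceeds 0.85, against 3.39 for SERPINB1.

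Clade H has the single member SERPINH1, also called HSP47 (chromosome 11, 75562056 to 75572783, plus strand, 5 exon blocks), which binds folded procollagen on its way to the Golgi. It had 1426, 1240 and 1206 counts in control and 1064, 1140 and 887 in 25(OH)D. In CPM, the lowest control library (32.8) was above the highest 25(OH)D library (30.3). The group levels were 33.3 ± 0.853 and 29.05 ± 1.61 CPM (SD, n = 3 each), which made SERPINH1 1.14-fold lower (log2 fold change -0.20 ± 0.0639 SE, edgeR adjusted p = 0.0293). This call was not stable: the adjusted p was 0.0606 with DESeq2 and 0.0534 without a low-count filter. It was also lost without control replicate 1 (0.110), 2 (0.0704) or 3 (0.0582) and without 25(OH)D replicate 2 (0.0699) or 3 (0.134), while omitting 25(OH)D replicate 1 kept it (0.0396).

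Of 20 further genes of collagen maturation, 18 were tested, 7 rose and 1 fell, with a median log2 fold change of 0.10, beside 17.3% higher, 16.5% lower and a median of -0.01 among all genes tested. This list, like those below, was chosen with earlier results of these data known. The genes that rose were mostly enzymes that hydroxylate procollagen, but not all genes of these families were called. P4HA2 had a log2 fold change of 0.05 (edgeR adjusted p = 0.676) and P3H4 one of 0.07 (adjusted p = 0.590). P4HB, the beta subunit of prolyl 4-hydroxylase, rose from 424 ± 4.20 to 584 ± 14.9 CPM (SD, n = 3 each; log2 fold change 0.46 ± 0.0346 SE, adjusted p = 1.25e-07). The catalytic subunit P4HA1 (log2 fold change 0.31, adjusted p = 5.85e-05), the lysyl hydroxylases PLOD1 (0.33, adjusted p = 0.00212) and PLOD2 (0.35, adjusted p = 3.09e-04) and the prolyl 3-hydroxylases P3H1 (0.62, adjusted p = 1.91e-04) and P3H3 (0.39, adjusted p = 0.00482) rose too, as did CRTAP, the partner of P3H1 (0.26, adjusted p = 3.37e-04). The member that fell was MIA3, which loads procollagen into carriers at exit sites of the endoplasmic reticulum, from 751 ± 12.8 to 504 ± 11.2 CPM (log2 fold change -0.57 ± 0.0341 SE, adjusted p = 9.73e-09). COL1A1, a chain of the collagen that SERPINH1 binds, fell from a mean of 37.5 to 33.1 CPM (log2 fold change -0.18, edgeR adjusted p = 0.0320). Whether this call holds under the alternatives was not examined. COL1A2 had 12, 6 and 16 counts in control and 0, 2 and 6 in 25(OH)D and did not pass the filter. COL1A1 was the only fibroblast marker of 8 that passed the filter, and its part in these values was not tested.

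The secreted clades A, C, D, E, F, G and I held 16 members, of which 6 were tested. In edgeR's quasi-likelihood test 0 of the 6 had an adjusted p under 0.05, 0 had an unadjusted p under 0.05, and DESeq2 called 0 as well. Among all genes tested, 33.8% had an adjusted p under 0.05 in edgeR. Most of the 6 had few reads, as given below, so their count cannot be compared directly with that of clade B. The most abundant of the 6 was SERPINE3, a little studied member of the family, with 222, 278 and 295 counts in control and 235, 227 and 216 in 25(OH)D (log2 fold change -0.10 ± 0.147 SE, adjusted p = 0.632). SERPINE3 shares 789 of its 2608 exon bases with INTS6 on the opposite strand. INTS6, a subunit of the Integrator complex, had between 5110 and 9656 counts per library and a log2 fold change of -0.48. The paper names a stranded library kit, but the sources used here do not say that counting used the strand. Reads of this pair of genes may therefore not be separable.

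SERPING1, the inhibitor of complement C1, had 10, 10 and 6 counts in control and 14, 12 and 20 in 25(OH)D. Its libraries did not overlap between groups, but its log2 fold change of 0.96 had a standard error of 0.477 (adjusted p = 0.143). SERPINA1 (alpha-1-antitrypsin) had 16 to 30 counts in control and 18 to 32 in 25(OH)D, SERPINF1 (PEDF, a non-inhibitory serpin) 16 to 31 and 12 to 21, and SERPINI1 (neuroserpin) 20 to 26 and 20 to 44. Their log2 fold changes were 0.41, -0.40 and 0.44, each with an adjusted p above that of SERPING1. None of these 4 had more than 44 counts in a library, so moderate changes of these genes could not be resolved.

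The remaining 10 secreted members did not pass the filter and had at most 10 counts in any library. They were SERPINC1 (antithrombin), SERPIND1 (heparin cofactor II), SERPINE2 (protease nexin-1), SERPINF2 (alpha-2-antiplasmin), SERPINI2, SERPINA3 (alpha-1-antichymotrypsin), SERPINA5 (protein C inhibitor), SERPINA6 (corticosteroid-binding globulin), SERPINA7 (thyroxine-binding globulin) and SERPINA11. SERPINA3 had 2, 0 and 2 counts in control and 4, 6 and 6 in 25(OH)D, the only member of these 10 whose libraries did not overlap. Its level was too low for a test, and 28.3% of the 100-base stretches of its transcripts occurred in transcripts of other genes. Over the whole family, 8 members had 3 counts or fewer in every library.

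Proteases that serpins inhibit, their receptors and cofactors, other protease inhibitors and the collagen maturation genes described above were read from 7 lists. The collagen maturation genes supplied 18 tested genes, of which 7 rose and 1 fell. Together the 7 lists held 140 genes, of which 77 were tested, 27 rose and 11 fell, with a median log2 fold change of 0.11. Over all genes tested, the values against which this count and those of the single lists stand, 17.3% rose, 16.5% fell and the median was -0.01. The lists were chosen with earlier results of these data known, and not all of their genes are serpin targets. The comparison with all genes is therefore a description and not a test. Of the targets named above for SERPINB1, the elastase gene ELANE had 1 count in 1 library, and the genes of proteinase 3 (PRTN3) and cathepsin G (CTSG) were not analysed here. PLAU and PLAT, the plasminogen activators, had at most 7 and 6 counts per library, and F2 (prothrombin) at most 5, so none of the 3 was tested. In the list of plasminogen and contact activation, 8 of 12 genes were tested, 2 rose and 1 fell. ANXA2, an annexin that binds tissue plasminogen activator at the cell surface, rose from 383 ± 15.5 to 665 ± 20.02 CPM (SD, n = 3 each; log2 fold change 0.80 ± 0.0396 SE, adjusted p = 1.34e-09). HABP2, a plasma serine protease, fell on few reads, with 18, 20 and 14 counts in control and 0, 6 and 2 in 25(OH)D (adjusted p = 0.00959). The urokinase receptor PLAUR had a log2 fold change of -0.43 (adjusted p = 0.370).

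Among coagulation and complement genes, 8 of 16 were tested, 2 rose and 3 fell, with a median log2 fold change of -0.21. THBD (thrombomodulin), which turns thrombin into an activator of protein C, had 10.0, 10.3 and 9.70 CPM in control and 28.2, 28.8 and 28.02 CPM in 25(OH)D. The replicates lay close together and the rise was well outside their spread (log2 fold change 1.50 ± 0.0714 SE, adjusted p = 8.08e-10). F2RL1, a receptor cleaved by trypsin-like proteases, rose with 10, 40 and 4 counts in control and 60, 64 and 56 in 25(OH)D (adjusted p = 0.0114). F7 (coagulation factor VII) fell from 97.1 ± 4.47 to 75.6 ± 0.786 CPM (SD, n = 3 each; log2 fold change -0.36 ± 0.0479 SE, adjusted p = 3.95e-05), and its partner F3 (tissue factor) and the protein C receptor PROCR fell by 0.64 and 1.47 on the log2 scale (adjusted p = 0.0284 and 0.00101).

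**Figure D5:**
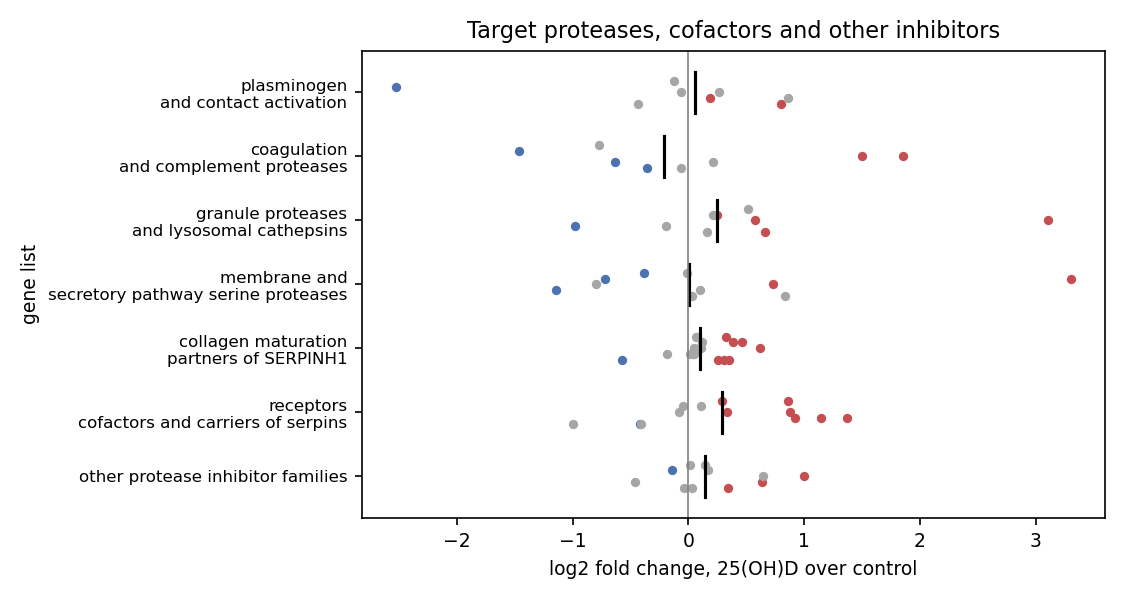
Log2 fold change of 25(OH)D over control for each tested gene of the 7 lists (red, higher; blue, lower; grey, adjusted p of 0.05 or more), with the median of each list as a black bar. The points furthest to the right are TMPRSS2 (3.30) and CTSD (3.10), and the list medians lie between -0.21 and 0.29.

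Of 20 granule proteases and cathepsins, 9 were tested, 4 rose and 1 fell. CTSD, the aspartic protease cathepsin D of lysosomes, which is no serpin target, went from 1478, 1211 and 1350 counts in control to 10268, 11739 and 9716 in 25(OH)D (log2 fold change 3.10 ± 0.0530 SE, adjusted p = 1.44e-14). CTSL, a cysteine cathepsin, rose from 17.8 ± 2.46 to 28.3 ± 0.915 CPM (SD, n = 3 each; log2 fold change 0.67 ± 0.0892 SE, adjusted p = 4.34e-05). Its close relative CTSV fell from 3.34 ± 0.343 to 1.69 ± 0.518 CPM (log2 fold change -0.98 ± 0.218 SE, adjusted p = 0.00285). The remaining 2 that rose were CTSZ and LGMN, with log2 fold changes of 0.58 and 0.24.

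Among serine proteases of the membrane and secretory pathway, 10 of 16 were tested, 2 rose and 3 fell. TMPRSS2, a transmembrane serine protease, had 269, 292 and 291 counts in control and 2658, 2802 and 2253 in 25(OH)D (log2 fold change 3.30 ± 0.0794 SE, adjusted p = 5.13e-13). FURIN, the proprotein convertase that SERPINB8 can inhibit, went the other way, with 577, 580 and 491 counts in control and 231, 246 and 206 in 25(OH)D (log2 fold change -1.14 ± 0.0960 SE, adjusted p = 4.14e-07). ST14 (matriptase) did not pass the test, and its libraries were far apart, at 99.4, 56.3 and 61.4 CPM in control and 76.6, 77.6 and 235 CPM in 25(OH)D. Its log2 fold change of 0.84 ± 0.340 SE (edgeR adjusted p = 0.0735) rested on 25(OH)D replicate 3 and was 0.10 without it. Without control replicate 1, 25(OH)D replicate 1 or 25(OH)D replicate 2, ST14 passed, with log2 fold changes of 1.14, 1.11 and 1.11. Of the 10 other alternatives it passed in 1, the edgeR fit with no low-count filter (adjusted p = 3.30e-53), and the highest adjusted p was 0.346. So small a value does not reflect the spread between these libraries.

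All 13 receptors, cofactors and carriers in the table were tested, 7 rose and 1 fell, with a median log2 fold change of 0.29. PNPLA2, a triglyceride lipase that binds SERPINF1, rose from 35.1 ± 1.75 to 77.5 ± 2.30 CPM (SD, n = 3 each; log2 fold change 1.14 ± 0.0555 SE, adjusted p = 1.01e-09). LRP1, the receptor that clears serpin-protease complexes, fell from 13.9 ± 2.73 to 10.5 ± 0.682 CPM (log2 fold change -0.42 ± 0.124 SE, adjusted p = 0.0179), but the call was lost without control replicate 1, 25(OH)D replicate 1 or 25(OH)D replicate 2 (adjusted p = 0.110, 0.0638 and 0.0705) and with limma on log2 RPKM (adjusted p = 0.105 and 0.120 with 1 and 0.1 added). Of 42 inhibitors from other families, 11 were tested, 3 rose and 1 fell. SPINT2, a Kunitz inhibitor of transmembrane serine proteases, rose from 212 ± 7.78 to 331 ± 13.7 CPM (SD, n = 3 each; log2 fold change 0.64 ± 0.0427 SE, adjusted p = 3.48e-08), and SPINT1 and SLPI rose with log2 fold changes of 0.34 and 0.998. CAST (calpastatin), the calpain inhibitor, fell from 146 ± 0.969 to 132 ± 5.63 CPM (log2 fold change -0.14 ± 0.0428 SE, adjusted p = 0.0207). This small fall kept an adjusted p under 0.05 without 25(OH)D replicate 3, and lost it when any other library was left out (0.0512 to 0.103).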

How the data were processed

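The authors deposited a table of counts, raw and whole-numbered for each gene, and a table of RPKM values. Each deposited RPKM equalled the count divided by gene length and library total (largest relative difference 2.23e-13). The submitters' processing notes name Trimmomatic 0.36, featureCounts of Subread 1.5.1, edgeR 3.12.1 and GRCh38; the aligner and annotation release are not given in the sources used here. Libraries were assigned to groups from their titles. Tests on the counts used edgeR 4.0.16 under R 4.3.3: TMM normalization, the default low-count filter (minimum count 10) and the quasi-likelihood test without covariates, with Benjamini-Hochberg adjustment over 18183 genes. The standard error is the absolute log2 fold change divided by the square root of F. The test was checked on simulated data. DESeq2 1.42.0, limma 3.58.1 on log2(RPKM + 1 or 0.1), other normalizations and filters, the replicate block and the omission of each library were alternatives. Low counts (1 to 20) were even in 66.0% to 68.0% of cases. The sources used here do not say whether a read pair was counted as 1 or as 2. If it was counted as 2, the low counts given here stand for fewer sequenced fragments. Halved counts were therefore added after seeing the data. Genes within 250 kb and promoter motifs were also chosen then. No 2 replicates were duplicates (chi-square per gene 4.01 to 12.1).

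The serpin family and the gene lists were chosen with earlier results of these data known. The name rule itself took every matching gene and used no measured value. Every serpin is named except 1 whose values are not reported here, which stays in the counts and medians. Full values are given for members with an adjusted p under 0.05 and 10 or more counts on average in the group where they were higher, for the 3 with the highest RPKM, and, in each list, for the called gene with the smallest p in each direction and for PLAU, PLAT, PLAUR, F2, CTSL and ST14. Other genes were named after their values were seen. Counting error limits members with few reads. Tables were made with Python 3.11.15, pandas 2.3.3 and matplotlib 3.10.9, and sequences are from RefSeq.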

Additional observations from a re-analysis of the deposited data

How the results depend on the processing

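The number of serpins that rose was 2, or 3 with SERPINB8 added, when no low-count filter was used or when control replicate 2 or 25(OH)D replicate 1 was left out. Calls from the fit with no low-count filter share the limit described for ST14. SERPINB1 and SERPINB6 kept an adjusted p under 0.05 under every alternative, with log2 fold changes from 2.94 to 3.47 and from 0.60 to 0.72. Both lowest values came from limma on log2(RPKM + 1). The number that fell, 1 (SERPINH1), was 0 with no low-count filter and 0 with the DESeq2 Wald test, and between 0 and 1 with each library left out in turn. At the limits of the study the number higher was between 1 and 2 with each library left out, and it was 2 without control replicate 3 and without 25(OH)D replicate 2. The log2 fold change of SERPINE3 lay between -0.257 and 0.0233 with each library left out in turn, and was above 0 only without control replicate 3. The counts of the 77 partner genes that rose or fell stayed within 1.5 times their main values. The labels do not say whether equal replicate numbers mark paired samples. The deviations of equally numbered libraries correlated with -0.0721, -0.0120 and -0.0460, so no pairing was visible, which does not exclude it. With the replicate block, 2 serpins rose and 1 fell, and 3057 genes rose and 2896 fell in place of 3138 and 3004. Depth limits the 14 serpins that were not tested and the tested ones with at most 44 counts.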
